A study of Homo sapiens with 4 samples.

Results

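The genes described here are 10 regulators of the step from G1 into S phase, chosen by name: the CDK inhibitor genes CDKN1A, CDKN1B, CDKN1C, CDKN2A, CDKN2B, CDKN2C and CDKN2D, the pocket protein genes RB1 and RBL2, and the cyclin D1 gene CCND1. They were chosen with earlier results of these data known, so shares set beside those of all genes are a description. They are 10 of the 63677 genes in the count files, and all 10 were among the 15398 genes that passed the filter on low counts. Their transcripts were measured by RNA-seq in IMR90, normal human lung fibroblasts kept in culture, at passage 5. The control group was transfected with a non-targeting siRNA (NTC) and the knockdown group with siRNA against HMGB1, and both were harvested 72 h later. Each group holds 2 libraries, 1 from the isolate I90-10 and 1 from the isolate I90-79. All cells therefore went through RNAiMAX transfection, no untransfected culture is in the comparison, and each isolate gave a single library per group. P-values describe the spread between these libraries only.

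Cells leave G1 when the kinases CDK4 and CDK6, bound to a D-type cyclin, begin to phosphorylate the pocket proteins, the retinoblastoma protein and its relatives p107 and p130, and so release E2F factors that drive the genes of DNA replication. The INK4 inhibitors, products of the CDKN2 genes, bind CDK4 and CDK6 alone, while the CIP/KIP inhibitors, products of the CDKN1 genes, bind cyclin-kinase complexes including those of CDK2. In cultured fibroblasts, CDKN2A and CDKN1A are the inhibitors most often used to mark the lasting arrest of senescence, a state in which HMGB1, an abundant DNA-bending protein of chromatin, leaves the nucleus. The comparison asks how the transcripts of this control circuit differed once HMGB1 was depleted from cells of early passage.

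The siRNA target was checked before its effects. HMGB1 stood at 181 and 237 CPM, its reads scaled to the TMM-adjusted size of each library, in the control libraries of I90-10 and I90-79 and at 16.0 and 18.9 CPM in their knockdown libraries. It fell by 3.59 on the log2 scale (SE 0.19, adjusted p = 0.0075), and 12.0% of its transcript pieces of 50 bases recur elsewhere, in HMGB1 pseudogenes. The libraries held 29861687 to 35317010 counted reads, and their 10 most abundant genes took 5.63% to 8.52% of them. All 10 fibroblast markers examined were above 1 CPM in every library, with summed levels from 18850 to 34780 CPM, which were higher in both I90-10 libraries than in both I90-79 libraries. The 8 epithelial markers summed to 0.864 to 1.57 CPM, with 4 at 0 throughout, and the 8 immune markers to 0.0814 to 0.346 CPM, with 3 at 0 throughout. Of 7 endothelial markers with an identifier, CDH5 and ERG were at 0 and TEK alone was above 1 CPM in every library. Their sum was 151 and 150 CPM in the control and 136 and 136 CPM in the knockdown libraries, nearly all of it TEK, and without TEK it was 2.28 and 2.41 CPM in the control and 4.95 and 4.61 CPM in the knockdown libraries. The part of these markers in the results was not tested. In bulk RNA, fewer cells with a transcript and less of that transcript per cell cannot be told apart.

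Upon HMGB1 knockdown, CDKN2B rose about 4-fold. It was the only gene of the 10 called in the main fit, edgeR without a term for the isolate. Calls required an adjusted p of less than 0.01 in edgeR's quasi-likelihood test together with a log2 fold change of more than 0.6 in size. By this rule 1 of the 10 genes was called up and 0 down, beside 0.0649% and 0.136% of all genes tested, and 2 of the 10 had an unadjusted p under 0.05, beside 28.3% of all genes. When the isolate entered the fit as a replicate block, RBL2 was called down as well, so that 1 gene rose and 1 fell, beside 6.68% and 7.84% of all genes. In that fit 8 of the 10 had an unadjusted p under 0.05, beside 43.6% of all genes. Without the block, RBL2 was also called down by DESeq2 and by edgeR with no filter on low counts. The median log2 fold change was 0.20 over the 10 genes and -0.01 over all genes tested. In 5 of the 10 genes both knockdown libraries lay above both control libraries, and in 2 both lay below, beside 29.8% and 30.2% of all genes.

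**Figure D1:**
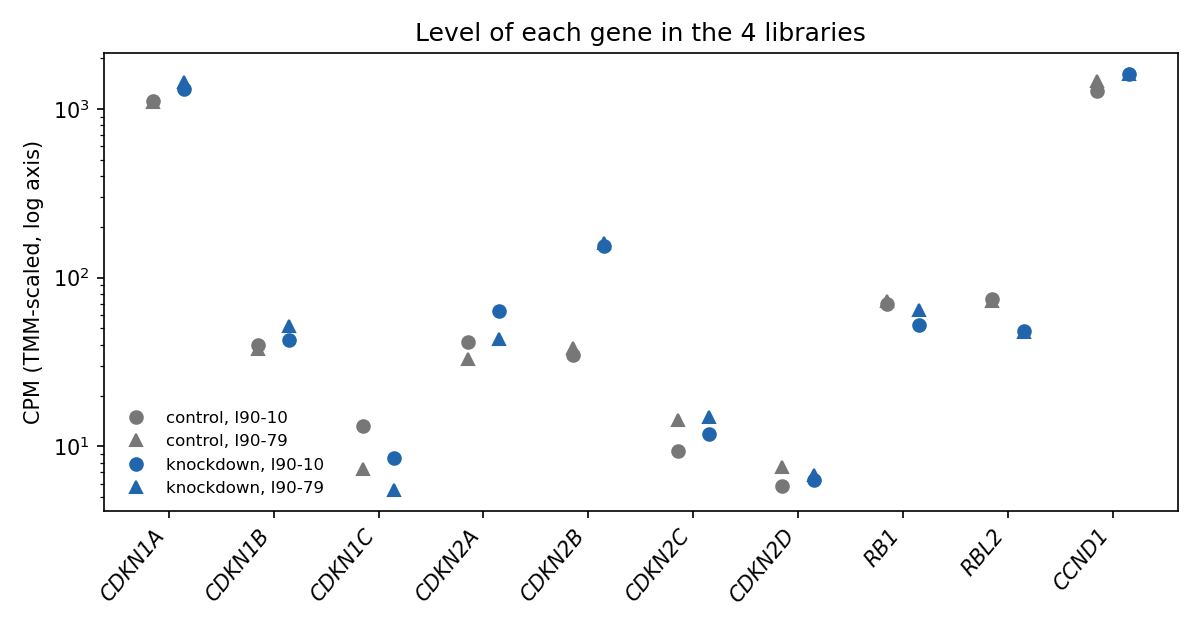
Level of each of the 10 genes in CPM on a log axis, with 1 point per library, grey for control and blue for knockdown, circles for I90-10 and triangles for I90-79. The blue points of CDKN2B, at 153 and 161 CPM, stand well above its grey points at 34.8 and 38.4 CPM, and those of RBL2 lie close together below its controls.

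Per kilobase of exon, the inhibitors covered a wide range of levels. In the control libraries CDKN1A had the highest level, 370.4 ± 5.6 RPKM (SD, n = 2), followed by CCND1 at 284 ± 26 RPKM. CDKN1B at 13.7 ± 0.49 RPKM, RB1 at 11.5 ± 0.31 RPKM and RBL2 at 9.80 ± 0.24 RPKM came next, without overlap between neighbours in this order. CDKN2B at 9.02 ± 0.63 RPKM and CDKN2A at 8.45 ± 1.38 RPKM overlapped, as did CDKN2D, CDKN1C and CDKN2C at 4.44 ± 0.81, 3.98 ± 1.61 and 3.56 ± 1.04 RPKM. In the knockdown libraries CDKN2B moved from the sixth place to the third, at 38.7 ± 1.31 RPKM, behind CDKN1A at 459.9 ± 31.7 RPKM and CCND1 at 332 ± 1.77 RPKM. Below it, CDKN1B stood at 16.8 ± 2.2 RPKM, CDKN2A at 12.1 ± 3.2 RPKM and RB1 at 9.45 ± 1.33 RPKM, of which the last pair overlapped, and RBL2 at 6.37 ± 0.04 RPKM. CDKN2D and CDKN2C again overlapped, at 4.33 ± 0.20 and 4.04 ± 0.66 RPKM, and CDKN1C was lowest at 2.71 ± 0.82 RPKM.

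CDKN2B encodes p15INK4b, which binds CDK4 and CDK6 and is a known target of TGF-β signalling. The gene lies on the reverse strand at chr9:22002902-22009362 (hg19), in 2 exon blocks that overlap no exon of another gene. Its level was 34.8 and 38.4 CPM in the control libraries of I90-10 and I90-79 and 153 and 161 CPM in their knockdown libraries, from 1023 and 1416 reads against 4424 and 5019. The groups were far apart and the isolates within a group were close. The log2 fold change was 2.10 (SE 0.12, 95% interval 1.80 to 2.39, adjusted p = 0.0075), with 2.14 in I90-10 and 2.06 in I90-79. The blocked fit gave 2.10 (adjusted p = 1.9e-05). With a knockdown library left out, the adjusted p was 0.0675 without replicate 1 and 0.0567 without replicate 2, at log2 fold changes of 2.13 and 2.06, and no gene at all was called in either fit.

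CDKN2A, on the same strand, lies 7601 bases from CDKN2B, at chr9:21967751-21995300 and encodes p16INK4a from 1 start and the unrelated ARF protein, an activator of p53, from another. Counts per gene do not separate these. Its level was 41.5 and 32.9 CPM in the control libraries of I90-10 and I90-79 and 63.3 and 43.4 CPM in the knockdown libraries. The knockdown libraries were higher in both isolates, but the knockdown library of I90-79 was only slightly above the control library of I90-10. The log2 fold change was 0.52 (SE 0.22, 95% interval -0.04 to 1.09, adjusted p = 0.202), and leaving out 1 library moved it as far as 0.22 (knockdown replicate 1) and 0.77 (knockdown replicate 2). In the blocked fit it was 0.51 with an adjusted p of 0.0083, which passes the threshold on p and misses that on the fold change. RUVs, a removal of unwanted variation, followed by DESeq2 called it up at 0.73 (adjusted p = 6.7e-04), beside 4.96% of all genes called up and 5.39% called down under that setting. Of its exonic bases, 7.75% are shared with CDKN2B-AS1 on the opposite strand, an antisense RNA with 8 and 29 reads in the control and 9 and 14 in the knockdown libraries. CDKN2A and CDKN2B also share 31 of the 50-base pieces of their transcripts, 0.755% and 0.776% of each gene's pieces.

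The windows around the starts of these neighbours are shown because CDKN2B moved and CDKN2A passed only some of the criteria. They come from the RefSeq table of promoters (GRCh38.p14, 250 bases before to 50 after a start), which holds 12 windows of 8 of the 10 genes. Capitals mark the GC box GGGCGG on either strand, with overlapping copies counted apart, and neither window holds the E2F word TTTNNCGC. The window of CDKN2A shown is the start of p16INK4a, since it ends in the first codons of that protein, and both genes are on the reverse strand.
CDKN2B, chr9:22009256-22009555: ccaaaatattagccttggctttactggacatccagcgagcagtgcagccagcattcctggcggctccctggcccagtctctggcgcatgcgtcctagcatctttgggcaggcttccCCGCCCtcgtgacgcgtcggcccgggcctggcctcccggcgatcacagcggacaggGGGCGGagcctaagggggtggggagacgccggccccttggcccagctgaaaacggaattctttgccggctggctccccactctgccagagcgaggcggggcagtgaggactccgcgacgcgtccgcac
CDKN2A, chr9:21974808-21975107: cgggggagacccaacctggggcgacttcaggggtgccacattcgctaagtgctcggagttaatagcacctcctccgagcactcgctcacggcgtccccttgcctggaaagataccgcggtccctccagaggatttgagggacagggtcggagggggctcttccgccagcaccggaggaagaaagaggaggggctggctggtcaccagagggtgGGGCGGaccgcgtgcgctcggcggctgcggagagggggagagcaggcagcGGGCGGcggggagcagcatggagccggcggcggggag
Each of the 2 windows has 2 GC boxes. Of 35116 promoter windows, 45.0% hold at least 1 and 15.8% hold 3 or more. Their GC content was 67.3% and 69.0%, against a median of 58.7% over all windows. The other window of CDKN2A, chr9:21995275-21995574, holds 0 GC boxes. Among the rest, CDKN1A has 4 GC boxes in its window, 1 window of CDKN2C has 6, and CDKN2D has 3 together with the only E2F word found in a window of these genes, on a background of 6.89% of all windows. These matches are letters in a window and say nothing of a bound factor.

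Of the other INK4 genes, neither was called. CDKN2C, which encodes p18INK4c, had 9.39 and 14.3 CPM in the control libraries of I90-10 and I90-79 and 11.8 and 14.9 CPM in the knockdown libraries, so the groups overlapped and I90-79 was higher in each. Its log2 fold change was 0.18 (SE 0.26, adjusted p = 0.694), with a 95% interval of -0.47 to 0.83. CDKN2D, which encodes p19INK4d, had 5.82 and 7.54 CPM in the control and 6.30 and 6.72 CPM in the knockdown libraries, with both knockdown values inside the range of the controls. The log2 fold change was -0.04 (SE 0.22, adjusted p = 0.927), with a 95% interval of -0.59 to 0.51. These intervals lie below the lower bound for CDKN2B and leave room for changes past the threshold of 0.6 for CDKN2C alone.

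The make-up of the INK4 transcripts differed between the groups. Summed over the 4 INK4 genes, the level was 24.7 and 26.2 RPKM in the control and 59.9 and 58.4 RPKM in the knockdown libraries. CDKN2B made up 34.7% and 36.1% of this sum in the controls and 63.0% and 67.7% after knockdown. The ratio of CDKN2B to CDKN2A per kilobase was 0.910 and 1.27 in the control libraries of I90-10 and I90-79 and 2.62 and 4.01 in the knockdown libraries. Against the summed level of their targets CDK4 and CDK6, the INK4 transcripts had a ratio of 0.520 and 0.577 in the control and 0.921 and 0.979 in the knockdown libraries. Both ratios were higher in each knockdown library than in either control, and with 2 libraries a group the smallest p of an exact two-sided permutation test is 0.333. These ratios use the exon length in the files for each gene and do not measure protein. The sums, shares and ratios count CDKN2A as a whole, with transcripts of p16INK4a and of ARF not separated.

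**Figure D2:**
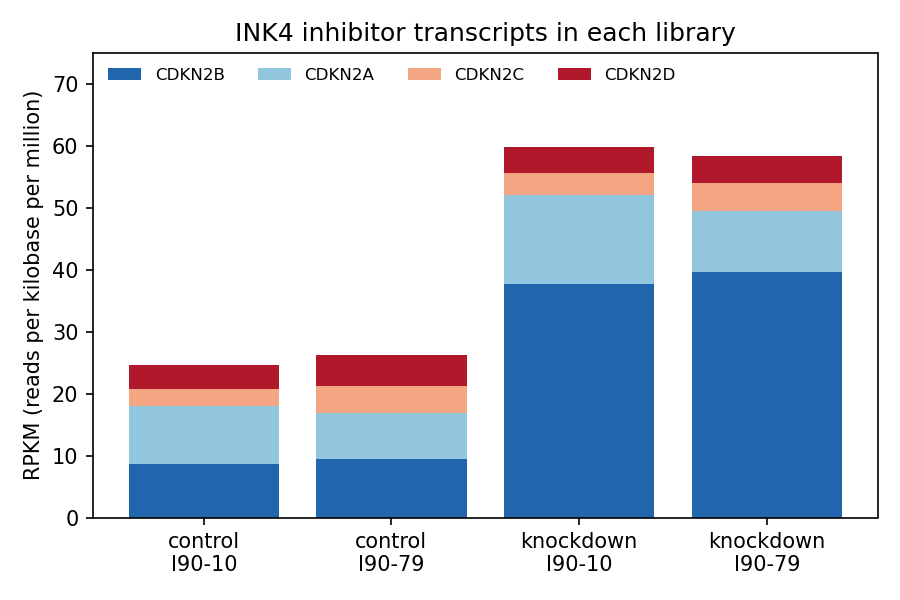
Stacked RPKM of the 4 INK4 genes in each library, with the bar height giving their sum. The sum is 24.7 and 26.2 RPKM in the control and 59.9 and 58.4 RPKM in the knockdown libraries, and most of the added height is CDKN2B.

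The rest of the locus was examined by position, after its values had been seen. MTAP, the neighbour beyond CDKN2A that encodes the methionine salvage enzyme methylthioadenosine phosphorylase, had 1.97 and 3.11 RPKM in the control and 6.74 and 7.66 RPKM in the knockdown libraries. Its log2 fold change was 1.50 (SE 0.24, adjusted p = 0.0287), not called, and 1.53 in the blocked fit (adjusted p = 1.7e-04), where it was called. DMRTA1, on the other side of CDKN2B, had 3 and 3 reads in the control and 14 and 24 in the knockdown libraries and was not called in either fit (adjusted p = 0.0502 and 0.0141). CDKN2B-AS1, which spans CDKN2B in an antisense direction, had overlapping groups and a log2 fold change of -0.50 (SE 0.63, adjusted p = 0.647).

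Among the CIP/KIP inhibitors none was called. CDKN1A encodes p21, the inhibitor induced by p53, and lies at chr6:36644305-36655116 (hg19). Its level was 1118 and 1094 CPM in the control libraries of I90-10 and I90-79 and 1306 and 1440 CPM in the knockdown libraries. Both knockdown libraries were higher, and its log2 fold change was 0.31 (SE 0.15, 95% interval -0.05 to 0.68, adjusted p = 0.229). It supplied 95.1% to 95.9% of the summed CIP/KIP level per kilobase in all 4 libraries. CDKN1B, which encodes p27, had 39.6 and 37.6 CPM in the control and 42.7 and 51.5 CPM in the knockdown libraries, again without overlap. The fitted log2 fold change was 0.29 (SE 0.14, adjusted p = 0.240). CDKN1C, which encodes p57 and is an imprinted gene, had 13.2 and 7.35 CPM in the control and 8.51 and 5.50 CPM in the knockdown libraries. It was lower after knockdown in each isolate, by 0.64 in I90-10 and 0.42 in I90-79 on the log2 scale, but the difference between the isolates was as large and the groups overlapped. Its log2 fold change was -0.55 (SE 0.36, adjusted p = 0.374). It was -0.07 without control replicate 1, -0.27 without knockdown replicate 2, -0.90 without knockdown replicate 1 and -0.92 without control replicate 2. These fits have no term for the isolate, so leaving out a library leaves the isolates unequal between the groups. With the block and all 4 libraries it was -0.53 (SE 0.16). In the blocked fit the adjusted p was 0.0452 for CDKN1A, 0.0998 for CDKN1B and 0.0368 for CDKN1C, none past the threshold.

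RBL2, at chr16:53467889-53525561 (hg19), encodes p130, the pocket protein that gathers E2F4 and the MuvB proteins into the repressive DREAM complex of resting cells. Its level was 75.1 and 72.5 CPM in the control libraries of I90-10 and I90-79 and 48.2 and 47.8 CPM in the knockdown libraries. The libraries within each group almost coincided and the groups did not overlap. The log2 fold change was -0.62 (SE 0.11, 95% interval -0.89 to -0.35), with an adjusted p of 0.0336, so that RBL2 was not called. The blocked fit left the fold change at -0.62 and called the gene down (adjusted p = 0.0022). DESeq2 also called it down at -0.62 (adjusted p = 0.0011), beside 5.31% of all genes called down and 4.73% called up. The fold change lies close to the threshold of 0.6. Of its exonic bases 8.10% are shared with AKTIP on the opposite strand, which had a log2 fold change of -0.37 (SE 0.18, adjusted p = 0.254), and the counting setting for strand is not given in the sources used here.

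RB1, at chr13:48877887-49056122 (hg19), encodes the retinoblastoma protein itself. It had 69.6 and 72.3 CPM in the control and 52.5 and 64.1 CPM in the knockdown libraries. Both knockdown libraries were lower, by 0.41 in I90-10 and 0.18 in I90-79 on the log2 scale, and the log2 fold change was -0.28 (SE 0.14, 95% interval -0.63 to 0.06, adjusted p = 0.243, and 0.0672 with the block). The ratio of RB1 to RBL2 per kilobase was 1.13 and 1.22 in the control and 1.33 and 1.64 in the knockdown libraries. Thus RB1 was the more abundant pocket protein transcript of the pair per kilobase in every library. In CPM, which does not correct for exon length, RBL2 was above RB1 in the control library of I90-10. The genes were nearly equal in the control library of I90-79, with 2675 reads for RBL2 and 2668 for RB1. RBL2 was below RB1 in both knockdown libraries.

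CCND1, at chr11:69455855-69469242 (hg19), encodes cyclin D1, the partner of CDK4 and CDK6 that mitogens induce. It had 1283 and 1460 CPM in the control and 1600 and 1612 CPM in the knockdown libraries, without overlap. The log2 fold change was 0.23 (SE 0.15, 95% interval -0.16 to 0.61, adjusted p = 0.382, and 0.114 with the block). Its exons share 10.3% of their bases with LTO1 on the opposite strand, whose log2 fold change was -0.01 (adjusted p = 0.976).

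**Figure D3:**
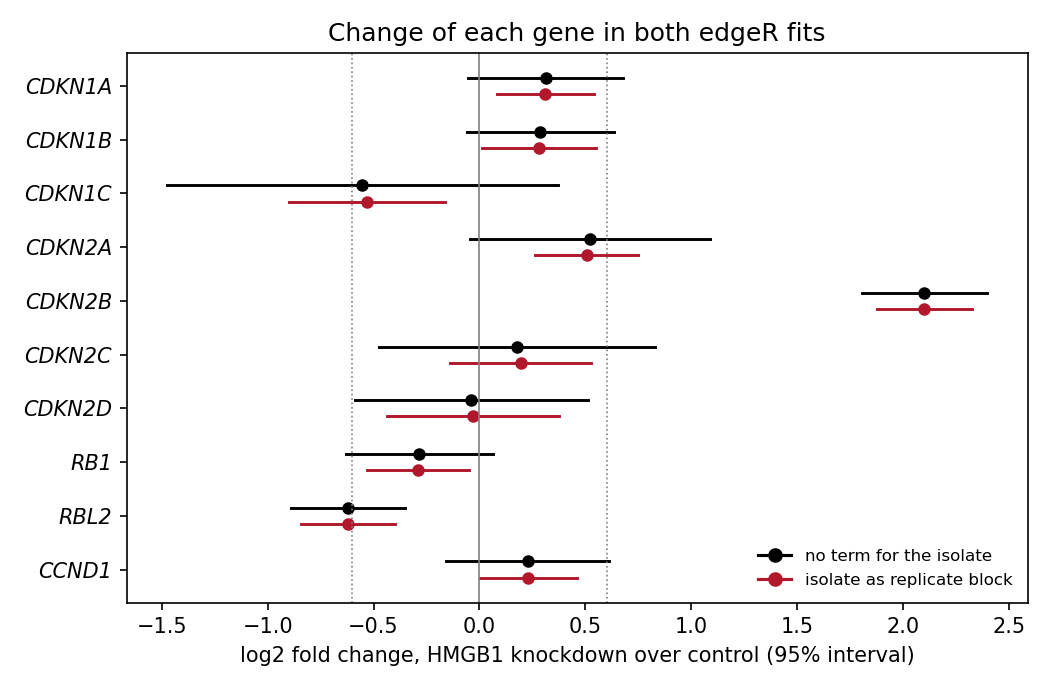
Log2 fold change of each gene, knockdown over control, with its 95% interval, from the edgeR fit without a term for the isolate (black) and from the fit in which the isolate is a replicate block (red), and dotted lines at the threshold of 0.6 in each direction. CDKN2B, at 2.10 in both fits, is the only gene whose intervals lie beyond a dotted line, and the red intervals are the shorter ones in every gene.

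The isolates were a source of variation of their own. In the blocked fit 0 of the 10 genes were called higher and 0 lower in I90-79 than in I90-10, beside 0.442% and 1.23% of all genes, and 3 had an unadjusted p under 0.05 for this difference, beside 22.2% of all genes. CDKN1C was lower in I90-79 in both groups, with a log2 difference of -0.74 (SE 0.16, adjusted p = 0.0337). CDKN2A was also lower there, at -0.44 (SE 0.11, adjusted p = 0.048), and CDKN2C higher, at 0.47 (SE 0.14, adjusted p = 0.102). For CDKN2B and RBL2 the differences were 0.10 and -0.03. Of 24 E2F target genes all 24 had a positive isolate difference in this fit, with 1 called, and their median difference was 0.81 between the control libraries and 0.21 between the knockdown libraries. Whether the isolates differed in growth was not tested.

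**Figure D4:**
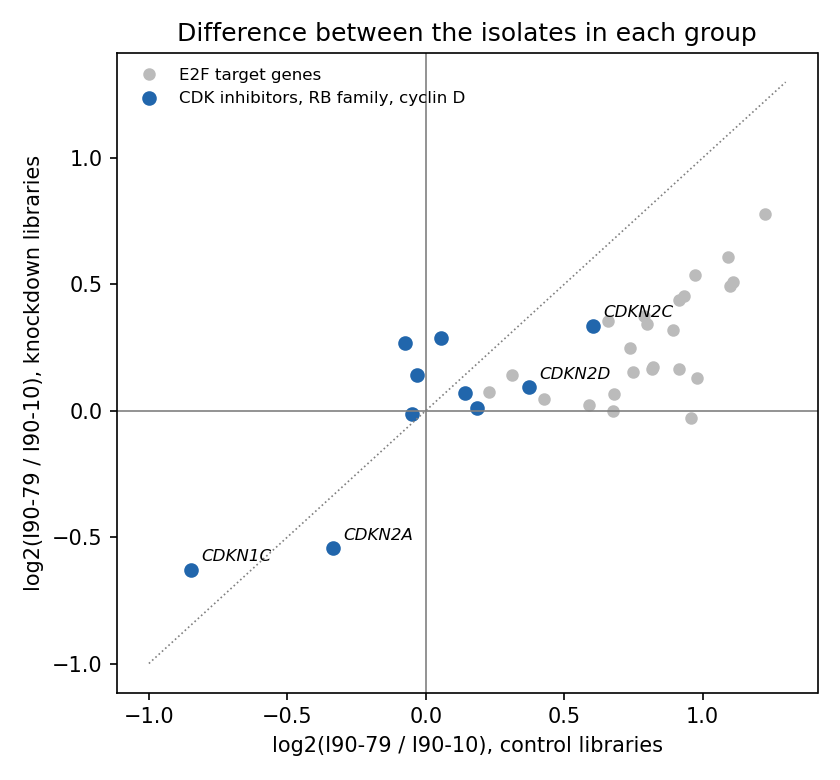
Log2 ratio of I90-79 to I90-10 in the control libraries (horizontal) and in the knockdown libraries (vertical) for the 10 genes (blue) and 24 E2F target genes (grey), with a dotted line where both are equal. CDKN1C and CDKN2A are lower in I90-79 on both axes, and the E2F targets lie below the dotted line, with medians of 0.81 and 0.21.

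The remaining genes of the circuit were taken from 5 lists of 92 genes in all, each of which was tested. In the main fit 0 of the 92 were called up and 0 down, while 21 had an unadjusted p under 0.05, beside 28.3% of all genes. With no filter on low counts, edgeR without the block called 4 up and 9 down, beside 1118 and 1275 over all genes. DESeq2 called 1 of the 92 up and 6 down, beside 4.73% and 5.31% of all genes. With the block 4 rose and 10 fell, beside the 6.68% and 7.84% of all genes given above. Their median log2 fold change was 0.07.

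Of 12 cyclins and kinases of G1 and S phase, whose median log2 fold change was 0.27, 0 rose and 1 fell with the block. This was CCND2, the gene of cyclin D2, with 23.8 and 7.57 CPM in the control and 13.6 and 4.99 CPM in the knockdown libraries of I90-10 and I90-79. Its blocked log2 fold change was -0.71 (adjusted p = 0.0076), against an adjusted p of 0.514 without the block, and the isolates were further apart than the groups. CDK4 had 124 and 123 CPM in the control and 172 and 154 CPM in the knockdown libraries, with a log2 fold change of 0.40 (adjusted p = 0.0989). CDK6 had 101 and 83.2 CPM in the control and 130 and 137 CPM in the knockdown libraries, with a log2 fold change of 0.54 (adjusted p = 0.0736). In the blocked fit the adjusted p was 0.0147 for CDK4 and 0.0081 for CDK6, whose fold change stayed under 0.6, so that neither kinase was called, and both were singled out as the targets of the INK4 proteins after their values had been seen.

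Of 17 partners of the pocket proteins, with a median of 0.23, 0 rose and 2 fell with the block. LIN52, the MuvB subunit through which p130 joins the DREAM complex, had 14.6 and 19.7 CPM in the control and 6.78 and 8.48 CPM in the knockdown libraries. Its log2 fold change was -1.17 (SE 0.23, adjusted p = 0.0434; blocked -1.16, adjusted p = 6.9e-04). E2F6, a repressive E2F that acts without pocket proteins, had 20.4 and 23.6 CPM in the control and 12.5 and 15.6 CPM in the knockdown libraries, with a blocked log2 fold change of -0.66 (adjusted p = 0.0052).

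Of the 24 E2F target genes, 2 rose and 1 fell with the block, and the median log2 fold change was 0.11. MCM7, a subunit of the replicative helicase, had 57.8 and 107 CPM in the control and 143 and 178 CPM in the knockdown libraries, with a blocked log2 fold change of 1.01 (adjusted p = 0.0012). TYMS, the gene of thymidylate synthase, had 27.0 and 45.0 CPM in the control and 50.4 and 59.9 CPM in the knockdown libraries, and its blocked log2 fold change was 0.65 (adjusted p = 0.0073). PCNA, the sliding clamp of DNA polymerase, went the other way, from 90.0 and 121 CPM to 51.7 and 53.4 CPM, with a blocked log2 fold change of -0.99 (adjusted p = 6.1e-04). The called genes of this list therefore did not share a direction.

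Of 16 genes for the turnover of inhibitor proteins, with a median of 0.02, 0 rose and 2 fell with the block. SKP2, the F-box protein that brings p27 to the proteasome, had 52.8 and 41.4 CPM in the control and 20.3 and 21.8 CPM in the knockdown libraries, with a log2 fold change of -1.16 (SE 0.16, adjusted p = 0.0219; blocked -1.15, adjusted p = 5.2e-04). DDB1, the adaptor of CUL4 ubiquitin ligases, had 361 and 344 CPM in the control and 123 and 119 CPM in the knockdown libraries. Its log2 fold change was -1.55 (SE 0.12), with an adjusted p of 0.0104 that missed the threshold narrowly, and the blocked fit gave 4.9e-05.

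Of 23 regulators of the inhibitor genes, with a median of -0.12, 2 rose and 4 fell with the block. FOXO3, a forkhead factor that can induce CDKN1B and RBL2, had 88.5 and 68.4 CPM in the control and 26.0 and 23.6 CPM in the knockdown libraries, and its blocked log2 fold change was -1.65 (adjusted p = 6.1e-05). EZH2 and SUZ12, subunits of the Polycomb complex that places H3K27me3 on the CDKN2A and CDKN2B locus in proliferating fibroblasts, had blocked log2 fold changes of -0.68 (adjusted p = 0.0028) and -0.64 (adjusted p = 0.0032). KDM6B, a demethylase of the same mark, had 69.3 and 79.3 CPM in the control and 103 and 123 CPM in the knockdown libraries, with 0.61 (adjusted p = 0.0021). Of the ETS factors that can act on CDKN2A, ETS2 had a blocked log2 fold change of 0.88 (adjusted p = 0.0012) and ETS1 of -0.73 (adjusted p = 0.0030). In the main fit these 6 genes were not called, and no link between them and the inhibitor genes was tested.

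RBL2 and the genes of the 5 lists that fell with the block shared a short word in their 3′ UTRs. The 6-base word GCAGTT was chosen with earlier results of these data known, and it was counted on the transcript strand of the main (MANE) transcript of 12301 genes tested whose 3′ UTR reached 100 bases. Among the 10 genes it occurs in RBL2, with 2 copies, and in CCND1, with 1 copy, while CDKN2B has 0 copies in 3087 bases. The sites of these genes and of 4 others that fell with the block are given in 30 bases each, on the transcript strand in hg19, with the word in capitals.
RBL2, chr16:53525192-53525221: tgggtgttcctgGCAGTTtaaaaaaattgg
RBL2, chr16:53525320-53525349: actattgttccaGCAGTTttcaagtcaaat
CCND1, chr11:69467111-69467140: tgtgcagggaggGCAGTTttctaatggaat
SKP2, chr5:36183224-36183253: tatatcttccatGCAGTTtcagtagtaagc
DDB1, chr11:61067294-61067323: gggaaggattttGCAGTTctttggctgaaa
PCNA, chr20:5095637-5095666: ttgactctaaatGCAGTTttaagaattgtt
LIN52, chr14:74665870-74665899: ccaaggatcattGCAGTTactcaatcaact
All of these except CCND1, which was not called, fell with the block. Of 90 genes of the 5 lists with such a 3′ UTR, 32 hold the word, or 35.6%, close to the 36.2% of all genes. It is in 10 of the 10 that fell with the block and in 0 of the 4 that rose. The median length of the 3′ UTR was 2198 bases in the 10 that fell, 931 in the 4 that rose and 1210 over all 90. Over all genes, 71.0% of those called down with the block and 30.3% of those called up hold it. The median log2 fold change was 0.07 over 7843 genes with 0 copies, -0.10 over 2703 with 1, -0.22 over 1041 with 2 and -0.32 over 714 with 3 or more. The length of the 3′ UTR moved with this order, with medians of 887, 2198, 3536 and 5378 bases, and its part in the result was not tested. Since the word was chosen on these libraries, these shares are a description. The paper's methods state that 2 different siRNAs were used in IMR90. Their sequences were not analysed here, so whether the word pairs with the seed of an siRNA was not tested. With only the contrast of HMGB1 siRNA and control siRNA, the loss of HMGB1 and other effects of the siRNA cannot be told apart, for RBL2 and CDKN2B as for the other genes.

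**Figure D5:**
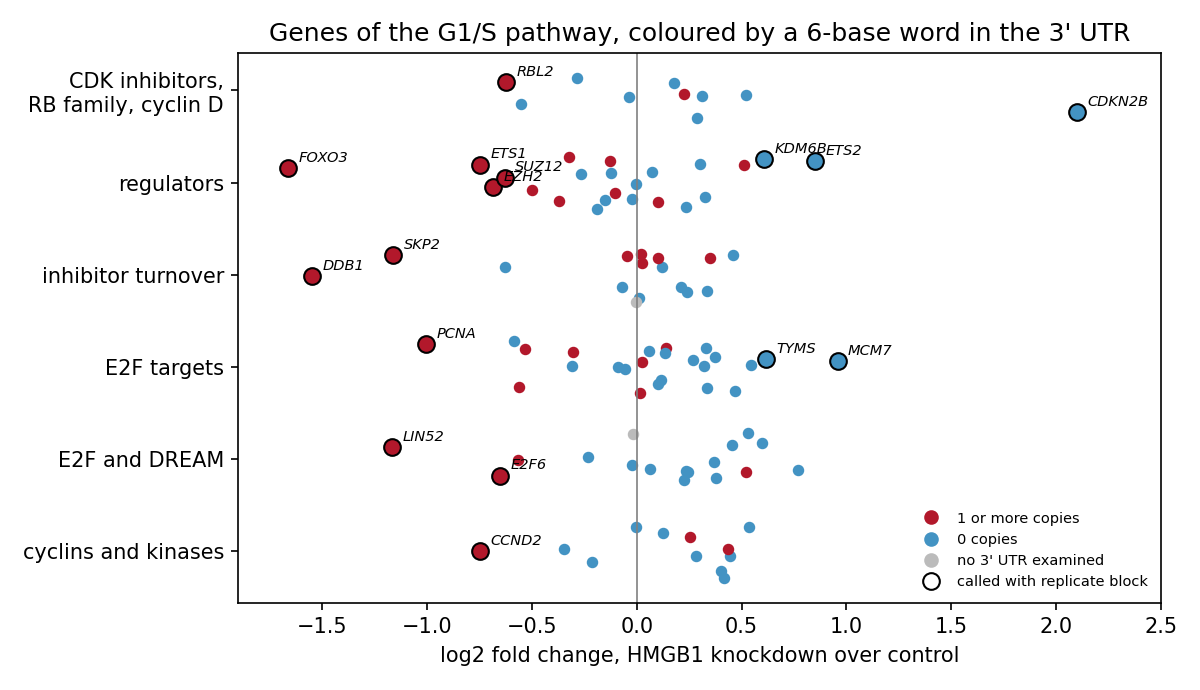
Log2 fold change without the block for the 10 genes and the 92 genes of the 5 lists, with 1 point per gene, red where the 3′ UTR holds the 6-base word, blue where it does not and grey where none was examined, and large outlined points for genes called with the replicate block. All outlined points left of 0 are red and all right of 0 are blue, with CDKN2B at 2.10 farthest right, and red and blue points mix among the genes not called.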

How the data were processed

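RNA-seq of poly(A) RNA (TruSeq libraries) was analysed from 2 control and 2 HMGB1 knockdown libraries of IMR90, with 29861687 to 35317010 counted reads each. The deposited files hold raw read counts per gene for 63677 genes, made by the authors with STAR on hg19 and featureCounts, without normalization. Tool versions and the strand setting are not given in the sources used here. Groups and isolates follow the labels.

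Counts were tested with edgeR 4.0.16 (R 4.3.3, limma 3.58.1) across all 4 libraries, after filterByExpr (15398 genes) and TMM normalization, by the quasi-likelihood test with Benjamini-Hochberg adjustment over all genes. The study's thresholds were applied, an adjusted p of less than 0.01 and a log2 fold change of more than 0.6 in size. The paper used them after RUVs normalization and DESeq2, tools that are an alternative here and not the main fit. SE was the fold change divided by the root of the F statistic. CPM used TMM-scaled totals, and RPKM divided CPM by the exonic length in the files. The main fit has no term for the isolate. Replicate numbers pair the libraries, since each number is 1 isolate, and the difference between isolates had a correlation of 0.56 between the groups over 15398 genes, so the blocked fit stands beside each call that it changes. The difference between isolates comes from the blocked fit.

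Alternatives were DESeq2 1.42.0 with and without the block, RUVs with 1 factor (all genes as controls) and DESeq2, other size factors, other filters, bias-adjusted deviances, thinned counts, other thresholds and leaving out each library. The code was checked on simulated counts. The 10 genes, the lists and the 6-base word were chosen with earlier results of these data known. Named by rule were the 10 genes, HMGB1, genes sharing their exons, and up to 6 genes per list called in either fit, by the smallest blocked p. MTAP, DMRTA1, CDK4 and CDK6 were added after their values were seen. Sequences of 3′ UTRs came from the GENCODE annotation on GRCh37.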

Additional observations from a re-analysis of the deposited data

Results flagged for a closer look

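CDKN2D, the gene of p19INK4d, moved in opposite directions in the isolates. The log2 ratio of knockdown to control was 0.11 in I90-10 and -0.17 in I90-79, from 171 and 182 reads in I90-10 and from 278 and 210 reads in I90-79. With a single library per isolate and group, this difference was not tested. Groups of 2 libraries were too small to look for a library apart from the other.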

How the results depend on the processing

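CDKN2B kept its direction under all 14 alternatives to the fit, with a log2 fold change from 2.03 to 2.17, and was called in 12. It was not called without knockdown replicate 1 or 2, where no gene was. RBL2 ranged from -0.65 to -0.60 and was called in 5 of 14. CDKN1A, CDKN1B, CDKN1C, RB1 and CCND1 kept their direction and were called in none, but some sizes moved by more than 1.5 times. CDKN1C was at -0.13 with RUVs and from -0.92 (without control replicate 2) to -0.07 (without control replicate 1). CDKN1B was at 0.15 without knockdown replicate 2, RB1 at -0.15 and -0.44 without knockdown replicates 1 and 2, and CCND1 at 0.14 without control replicate 1. CDKN2A kept its direction, from 0.22 (without knockdown replicate 1) to 0.77 (without knockdown replicate 2), and was called with RUVs. CDKN2C turned to -0.051 with RUVs, and with 1 library left out it ranged from -0.091 to 0.51, below 0 without control replicate 1 or knockdown replicate 2. CDKN2D ranged from -0.21 to 0.16 with 1 library left out, above 0 without control replicate 2 or knockdown replicate 1. All fits with 1 library left out lack a term for the isolate, so the isolates were unequal between the groups. Within I90-10 and I90-79, the log2 ratio of knockdown to control was 0.61 and 0.40 for CDKN2A and 0.33 and 0.07 for CDKN2C. For CDKN2D it was 0.11 and -0.17. The cause of these ranges was not tested. Of 140 such values, 127 kept their direction and their side of the thresholds.

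Counts are given as up and down, against 10 and 21 over all genes, 1 and 0 of the 10 genes and 0 and 0 of the 92 pathway genes. The replicate block, which the shared isolates call for, gave 1028 and 1207 over all genes, 1 and 1 of the 10, and 4 and 10 of the 92. DESeq2 gave 728 and 818, 1 and 1, and 1 and 6, and with the replicate block 967 and 1091, 1 and 1, and 4 and 9. RUVs with DESeq2 gave 763 and 830, 2 and 1, and 3 and 12. With no filter on low counts edgeR gave 1118 and 1275, 1 and 1, and 4 and 9. At least 10 counts in every library gave 6 up over all genes. Bias-adjusted deviances gave 30 and 68 over all genes and 1 pathway gene down. An adjusted p below 0.05 gave 575 and 668 over all genes, 1 of the 10 down and 5 pathway genes down. Leaving out 1 library gave 0 to 182 up and 0 to 221 down over all genes, 0 to 1 of the 10 up, and 0 to 1 up and 0 to 3 down of the pathway genes. CDKN1C was the 1 gene called lower in I90-79 with no filter, and also at an adjusted p below 0.05. The causes were not tested. Reads were few for CDKN2D, at 171 to 278, and for CDKN1C, at 172 to 389, and the part of this in their ranges was not tested.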
